A study of Mus musculus with 26 samples.

Results

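The 40 genes described here drive the mammalian cell cycle: 13 act at the G1/S transition, 12 in DNA replication and 15 in mitosis. They are a list of gene symbols fixed by name, not by a measured value, but chosen with earlier results of these data known. All 40 were found among the 52535 gene rows of the count files and among the 17273 genes tested. The series profiled E14, a mouse embryonic stem cell (ESC) line grown on gelatin in serum with LIF, the MEK inhibitor PD0325901 and the GSK3 inhibitor CHIR99021. Of its 26 samples, 4 RNA-seq libraries and 4 RNA polymerase II HiChIP samples bear on these genes, each assay with 2 biological replicates labelled Klf4-KO and 2 labelled WT. Both genotypes are labelled as neural progenitor cells (NPC) after 12 days of neural induction. The sources used here do not say how the knockout was made or how many clones it comprised.

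Progression through the cell cycle is driven by cyclins, which activate cyclin-dependent kinases (CDKs). D-type cyclins with CDK4 or CDK6, and then E-type cyclins with CDK2, phosphorylate the retinoblastoma protein and release E2F transcription factors, which switch on the genes of DNA replication. Cyclin A and cyclin B with CDK1 then bring the cell into mitosis, whose genes are switched on later through FOXM1 and the MuvB complex. ESCs are known for a short G1 phase and for high cyclin E.

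The genotype labels went against the targeted gene. Klf4, a zinc-finger transcription factor, had 2571 and 2538 counts in the KO-labelled libraries and 0 and 0 in the WT-labelled ones. That is at least 653-fold higher in CPM with a floor of 3 counts per WT-labelled library. Libraries are therefore named by their label, and every direction is KO-labelled relative to WT-labelled. Library totals ran from 29835774 to 37703866 gene counts. The NPC label was checked against marker genes, which moved with the labels as well. Pou5f1, a defining marker of pluripotent cells, had 429 and 431 CPM (counts per 1000000 counts of the TMM-adjusted library size) in KO-labelled libraries and 836 and 847 CPM in WT-labelled ones. Of 8 markers of pluripotent cells 7 were lower and 1, Utf1, higher. Utf1 had 365 and 359 CPM in KO-labelled libraries and 162 and 154 CPM in WT-labelled ones. The 8 markers summed to 4043 and 4095 CPM in KO-labelled libraries against 7682 and 7710 CPM in WT-labelled ones. The 8 neural progenitor markers summed to 284 and 289 CPM in KO-labelled libraries against 84.6 and 82.9 CPM in WT-labelled ones. Otx2 alone held 171 and 168 CPM of the KO-labelled sums and 7.95 and 7.88 CPM of the WT-labelled ones. All 6 of them that were tested were higher in KO-labelled libraries. Nes had 94.4 and 98.9 CPM in KO-labelled libraries and 73.4 and 73.3 CPM in WT-labelled ones, and Pax6 had 120 and 130 counts in KO-labelled libraries and 6 and 0 in WT-labelled ones. Fabp7, Hes5 and Emx2 had between 4 and 28 counts in each KO-labelled library and 0 in each WT-labelled one. The 8 fibroblast, matrix and contractile markers summed to 430 and 415 CPM in KO-labelled libraries against 1.05 and 0.867 CPM in WT-labelled ones. Col1a1, Col1a2 and Acta2 held most of the KO-labelled sums. Bgn, Dcn and Lum had 0 counts in both WT-labelled libraries. In KO-labelled libraries Bgn had 229 and 265 counts, Dcn 12 and 2, Lum 1 and 5, and Tagln 23 and 16. Dcn and Lum were not tested. The 8 neuron markers summed to 217 and 213 CPM in KO-labelled libraries against 513 and 496 CPM in WT-labelled ones. Of the 7 neuron markers tested, Tubb3 and Stmn2, which hold most of that sum, were lower and the other 5 higher (median log2 fold change 1.59). The part of cell type in the differences given below was not tested. In bulk libraries, fewer cells of a type and less RNA per cell cannot be told apart.

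Most of the 40 genes had less RNA in KO-labelled than in WT-labelled cells. By edgeR's quasi-likelihood test with Benjamini-Hochberg adjustment over all genes tested, 31 fell, 5 rose and 4 were not called at an adjusted p of 0.05. Over all genes tested, 35.8% were lower, 37.2% higher and 73.1% called in either direction. The median log2 fold change of the 40 genes was -0.60, against 0.026 over all genes tested. Falls of at least 2-fold were called for 9 of the 40 (11.4% of all genes tested) and rises of at least 2-fold for 1, the cyclin gene Ccnd2 (22.3% of all genes tested). The KO-labelled and WT-labelled libraries did not overlap for 39 of the 40 genes, as for 14899 of the 17273 genes tested, and Kif11 was the exception. Summed over the 40 genes, the level was 7582 and 7466 CPM in KO-labelled libraries and 11810 and 11930 CPM in WT-labelled ones. Scaling by library size alone moved the median of all genes by 0.21, and the share of calls that were higher from 50.9% to 62.0%. With that scaling 31 of the 40 genes were lower and 8 higher, with a median of -0.39 beside 0.236 for all genes.

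By phase, all 12 replication genes fell (median -0.85). At G1/S 10 fell and 3 rose (median -0.70). In mitosis 9 fell, 2 rose and 4 were not called (median -0.39). Whether the phases differ from each other was not tested.

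**Figure D1:**
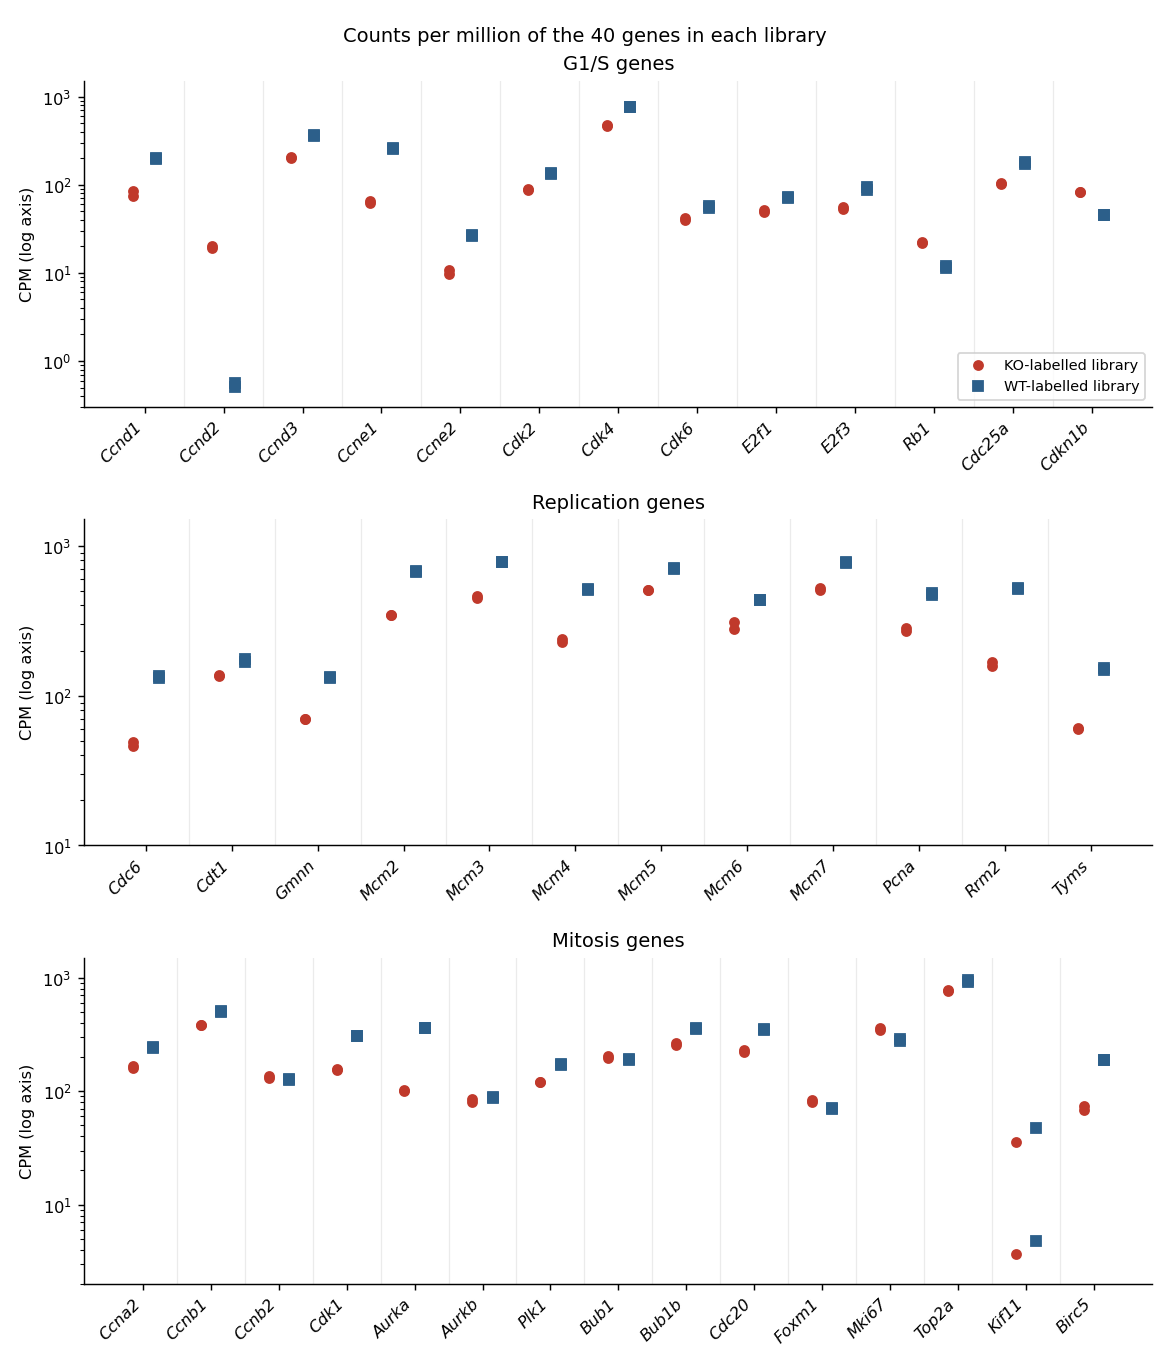
CPM (log axis) of each gene, with 1 point per library, circles for KO-labelled and squares for WT-labelled libraries, in panels by phase. The libraries of each label lie close together except for Kif11, and Ccnd2, Rb1 and Cdkn1b are the G1/S genes that lie higher in KO-labelled libraries.

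**Figure D2:**
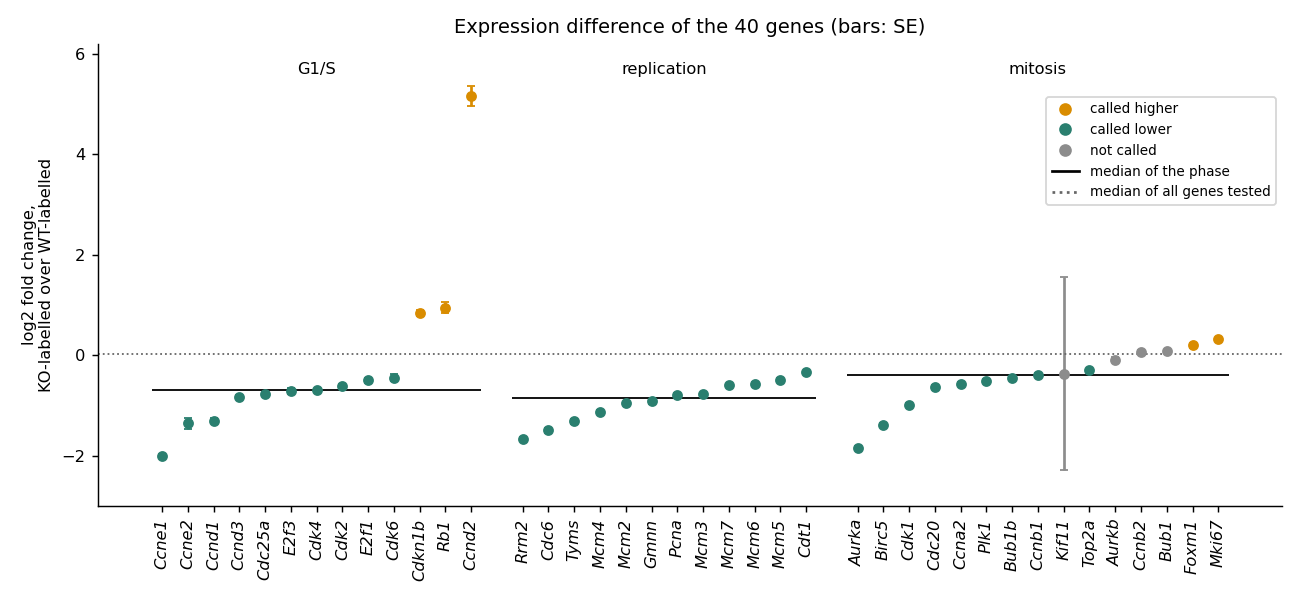
Log2 fold change, KO-labelled over WT-labelled, with its SE, for the 40 genes ordered within each phase. Horizontal lines mark the median of each phase (-0.70, -0.85 and -0.39) and the dotted line the median of all genes tested (0.026).

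Promoters of cell cycle genes carry known motifs that differ by phase, and they are shown here beside the calls by phase. RefSeq (GRCm38.p6, the assembly of mm10) gave 34 promoters of 31 of the genes, each from 250 bases before the annotated start to 50 after it. Ccnd1, Ccnd2, Ccne2, Rb1, Gmnn, Mcm4, Ccna2, Aurkb and Foxm1 had no entry. The motifs searched on both strands were the E2F element (TTTCCCGC, TTTCGCGC, TTTGCCGC or TTTGGCGC), the cell cycle genes homology region bound by MuvB complexes and called CHR (TTTGAA or TTCGAA), the CCAAT box bound by NF-Y (CCAAT) and a KLF-type motif (GGGNGTGG). An E2F element was present in 6 of 11 replication promoters (54.5%), 3 of 11 G1/S promoters (27.3%) and 1 of 12 mitosis promoters (8.33%), against 2.26% of all 32851 promoters in the table. A CHR was present in 10 of 12 mitosis promoters (83.3%), 2 of 11 replication promoters (18.2%) and 1 of 11 G1/S promoters (9.09%), against 19.2% of all promoters. A CCAAT box was found in 91.7% of mitosis, 72.7% of replication and 45.5% of G1/S promoters, against 37.4% of all. The KLF-type motif was found in 25.0% of mitosis, 36.4% of replication and 18.2% of G1/S promoters, against 17.6% of all. The median GC content was 60.0% for these 34 promoters and 52.7% for all. A match describes letters, not a bound site.

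**Figure D3:**
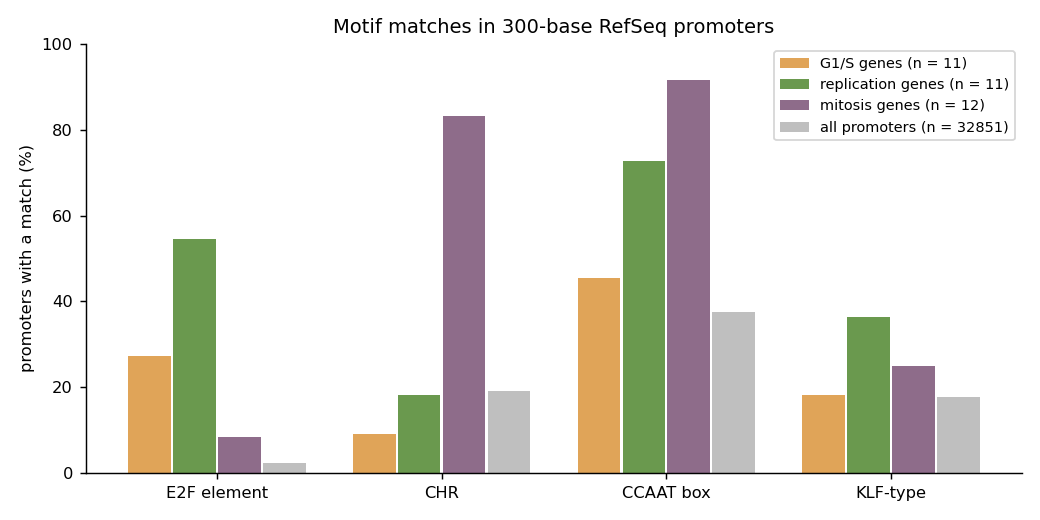
Share of promoters (%) with at least 1 match to each motif, for the G1/S, replication and mitosis genes and for all promoters of the RefSeq table. The E2F element is most frequent in replication promoters (54.5%) and the CHR in mitosis promoters (83.3%).

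The promoters of the genes with the largest fall and the largest rise called in each phase are printed here, 5′ to 3′ in the direction of the gene, with every motif match in capitals. No replication gene rose. Ccnd2, the largest rise at G1/S, had no entry, so Cdkn1b stands in for it, and Mcm6 is added as the replication promoter with 3 E2F matches, both chosen after the values were seen. All coordinates are GRCm38.p6. Ccne1 lies at chr7:38107441-38107740 on the minus strand, Cdkn1b at chr6:134920151-134920450 on the plus strand and Rrm2 at chr12:24708004-24708303 on the plus strand. Mcm6 lies at chr1:128359656-128359955, Aurka at chr2:172370521-172370820 and Mki67 at chr7:135716330-135716629, each on the minus strand.
Ccne1: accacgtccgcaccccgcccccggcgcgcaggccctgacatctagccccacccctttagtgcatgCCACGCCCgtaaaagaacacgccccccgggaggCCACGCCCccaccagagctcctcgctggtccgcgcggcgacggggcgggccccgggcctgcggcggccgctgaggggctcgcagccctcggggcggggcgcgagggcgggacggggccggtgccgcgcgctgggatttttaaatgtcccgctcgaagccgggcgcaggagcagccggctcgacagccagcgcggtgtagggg
Cdkn1b: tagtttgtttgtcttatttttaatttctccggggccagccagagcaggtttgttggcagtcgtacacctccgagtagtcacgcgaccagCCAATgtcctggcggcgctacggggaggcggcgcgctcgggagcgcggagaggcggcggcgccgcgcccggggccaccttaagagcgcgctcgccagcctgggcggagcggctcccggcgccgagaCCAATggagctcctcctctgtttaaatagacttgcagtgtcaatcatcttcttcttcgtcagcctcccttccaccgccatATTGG
Rrm2: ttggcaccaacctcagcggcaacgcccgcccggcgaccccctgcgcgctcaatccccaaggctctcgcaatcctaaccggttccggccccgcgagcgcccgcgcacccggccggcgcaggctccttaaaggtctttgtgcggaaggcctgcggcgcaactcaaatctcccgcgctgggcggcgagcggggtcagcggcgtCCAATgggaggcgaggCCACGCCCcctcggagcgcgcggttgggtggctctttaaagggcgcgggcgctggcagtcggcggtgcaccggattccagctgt
Mcm6: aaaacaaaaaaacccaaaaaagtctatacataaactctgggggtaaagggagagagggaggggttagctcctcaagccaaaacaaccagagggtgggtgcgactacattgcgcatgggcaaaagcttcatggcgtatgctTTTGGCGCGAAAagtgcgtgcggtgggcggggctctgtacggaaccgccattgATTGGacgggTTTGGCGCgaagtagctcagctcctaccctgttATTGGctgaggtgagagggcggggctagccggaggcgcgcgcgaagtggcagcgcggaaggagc
Aurka: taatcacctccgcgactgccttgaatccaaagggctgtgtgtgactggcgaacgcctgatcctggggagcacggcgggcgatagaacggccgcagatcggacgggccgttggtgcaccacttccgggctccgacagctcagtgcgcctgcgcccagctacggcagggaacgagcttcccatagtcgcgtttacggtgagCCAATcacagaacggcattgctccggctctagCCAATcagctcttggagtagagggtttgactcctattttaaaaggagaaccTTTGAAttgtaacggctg
Mki67: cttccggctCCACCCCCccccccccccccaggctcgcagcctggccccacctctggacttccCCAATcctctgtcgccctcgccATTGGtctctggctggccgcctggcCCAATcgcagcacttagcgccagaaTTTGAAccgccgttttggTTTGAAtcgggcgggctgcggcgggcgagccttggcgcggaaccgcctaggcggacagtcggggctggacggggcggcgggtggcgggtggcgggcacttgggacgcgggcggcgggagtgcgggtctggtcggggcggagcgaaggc

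Aurka, which fell most among the mitosis genes called, and Mki67, which rose most, both carried CHR and CCAAT matches. The CHR of Aurka lay 33 to 38 bases after the start, and the 2 of Mki67 lay before it. Of the 3 E2F matches of Mcm6, 2 overlapped each other on opposite strands. Ccne1 had KLF-type matches and neither an E2F element nor a CHR by these letters. Rrm2 had a CCAAT box and a KLF-type match. All 34 promoters overlapped a HiChIP anchor of both the KO-labelled and the WT-labelled loop list, with every deposited loop counted. Among all promoters in the table the share was 50.2% in the KO-labelled list and 37.9% in the WT-labelled list. That share is not restricted to genes tested for RNA, whereas all 40 genes were tested. The 34 promoters leave out the 9 genes without an entry, among them Ccnd2, which touched no loop at all in the WT-labelled list.

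The 13 G1/S genes spanned the widest range of log2 fold changes, from -2.01 to 5.16. Cyclins D1, D2 and D3, encoded by Ccnd1, Ccnd2 and Ccnd3, carry growth signals into the cycle by activating CDK4 and CDK6. Ccnd1 fell to 74.7 and 85.5 CPM in KO-labelled libraries, against 196 and 200 CPM in WT-labelled ones (log2 fold change -1.30 ± 0.049, SE; edgeR adjusted p = 9.22e-16). Ccnd3 fell to 206 and 202 CPM in KO-labelled libraries, against 358 and 368 CPM in WT-labelled ones (-0.83 ± 0.031; edgeR adjusted p = 8.01e-18). Ccnd2 went the other way. It had 654 and 715 counts, or 19.1 and 19.9 CPM, in KO-labelled libraries and 20 and 14 counts, or 0.570 and 0.506 CPM, in WT-labelled ones (5.16 ± 0.20; edgeR adjusted p = 1.22e-17). Ccnd2 was low in WT-labelled cells, where 3 counts corresponded to 0.0855 and 0.108 CPM. The 3 D-type cyclins therefore did not move together.

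Ccne1 and Ccne2 encode the E-type cyclins that activate CDK2 late in G1. Ccne1 had the largest fall of the 40 genes, with 61.5 and 65.8 CPM in KO-labelled libraries and 260.0 and 251 CPM in WT-labelled ones (-2.01 ± 0.041; edgeR adjusted p = 4.52e-23). Ccne2 fell to 9.83 and 10.7 CPM in KO-labelled libraries, against 25.9 and 26.6 CPM in WT-labelled ones (-1.35 ± 0.11; edgeR adjusted p = 3.03e-11). Both E-type cyclins thus fell by over 2-fold. Neither overlapped between labels, as for 14899 of the 17273 genes tested. Their kinase gene fell too. Cdk2 had 89.8 and 86.1 CPM in KO-labelled libraries and 138 and 131 CPM in WT-labelled ones (-0.61 ± 0.044; edgeR adjusted p = 4.92e-12). Cdk4 and Cdk6, the partners of the D-type cyclins, fell by 0.70 ± 0.025 and by 0.44 ± 0.065 on the log2 scale (edgeR adjusted p = 4.59e-18 and 1.34e-06). Cdc25a, the phosphatase that removes inhibitory phosphates from CDK2, had 102 and 106 CPM in KO-labelled libraries and 173 and 181 CPM in WT-labelled ones (-0.77 ± 0.040; edgeR adjusted p = 7.49e-15).

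Both inhibitors of G1/S progression among the 40 genes rose. Cdkn1b encodes p27, an inhibitor of cyclin-CDK2 complexes. Cdkn1b had 82.1 and 82.7 CPM in KO-labelled libraries and 45.9 and 45.9 CPM in WT-labelled ones (0.84 ± 0.055; edgeR adjusted p = 6.33e-13). Rb1, the retinoblastoma protein that holds E2F factors inactive, had 22.6 and 22.0 CPM in KO-labelled libraries and 11.2 and 11.9 CPM in WT-labelled ones (0.95 ± 0.11; edgeR adjusted p = 2.38e-08). E2f1 and E2f3, activator E2F factors, fell. E2f1 had 51.3 and 49.6 CPM in KO-labelled libraries and 70.3 and 72.3 CPM in WT-labelled ones (-0.50 ± 0.057; edgeR adjusted p = 2.07e-08). E2f3 had 56.3 and 53.7 CPM in KO-labelled libraries and 86.8 and 93.2 CPM in WT-labelled ones (-0.71 ± 0.055; edgeR adjusted p = 1.87e-11). Of the 13 G1/S genes, the 3 that rose were thus 1 cyclin gene and these 2 inhibitors of progression.

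All 12 replication genes fell, with edgeR adjusted p between 3.8e-23 and 1.6e-08. Origins are licensed in G1 when CDC6 and CDT1 load the MCM helicase onto DNA, and geminin (Gmnn) keeps CDT1 from loading it again in the same cycle. Cdc6 fell to 46.0 and 48.9 CPM in KO-labelled libraries, against 136 and 130 CPM in WT-labelled ones (-1.49 ± 0.050; edgeR adjusted p = 9.07e-19). Gmnn fell to 69.6 and 69.5 CPM in KO-labelled libraries, against 130 and 133 CPM in WT-labelled ones (-0.92 ± 0.044; edgeR adjusted p = 1.36e-15). Cdt1 had the smallest fall of the 12, with 137 and 135 CPM in KO-labelled libraries and 168 and 177 CPM in WT-labelled ones (-0.34 ± 0.038; edgeR adjusted p = 1.6e-08). In all 3, both KO-labelled libraries were below both WT-labelled ones, where 14899 of the 17273 genes tested did not overlap in either direction.

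The 6 MCM subunits form 1 ring and fell by 0.48 to 1.13 on the log2 scale. Mcm4 had the largest fall, with 239 and 228 CPM in KO-labelled libraries and 512 and 509 CPM in WT-labelled ones (-1.13 ± 0.030; edgeR adjusted p = 7.85e-21). Mcm2 had 345 and 348 CPM in KO-labelled libraries and 676 and 670 CPM in WT-labelled ones (-0.96 ± 0.026; edgeR adjusted p = 1.71e-20). Mcm5 had the smallest fall, with 507 and 505 CPM in KO-labelled libraries and 701 and 714 CPM in WT-labelled ones (-0.48 ± 0.025; edgeR adjusted p = 8.13e-15). Mcm3, Mcm7 and Mcm6 lay between them at -0.77, -0.59 and -0.57. In each of the 6, both KO-labelled libraries were below both WT-labelled ones. The labels did not overlap, in either direction, for 14899 of the 17273 genes tested.

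Genes of fork and nucleotide supply fell as well. Rrm2, the small subunit of ribonucleotide reductase, which makes deoxyribonucleotides, had the largest fall among the replication genes. Its level was 169 and 157 CPM in KO-labelled libraries and 513 and 524 CPM in WT-labelled ones (-1.67 ± 0.033; edgeR adjusted p = 3.8e-23). Tyms, thymidylate synthase, fell to 59.8 and 60.6 CPM in KO-labelled libraries, against 152 and 148 CPM in WT-labelled ones (-1.32 ± 0.044; edgeR adjusted p = 8.69e-19). Pcna, the sliding clamp of the replicative polymerases, fell to 283 and 269 CPM in KO-labelled libraries, against 482 and 466 CPM in WT-labelled ones (-0.78 ± 0.031; edgeR adjusted p = 2.04e-17). Both nucleotide synthesis genes fell by more than 2-fold and the clamp by less.

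Calls among the mitosis genes went in both directions. Of the kinases and cyclins of mitotic entry, Cdk1, the mitotic kinase, fell to 156 and 154 CPM in KO-labelled libraries, against 307 and 306 CPM in WT-labelled ones (-0.99 ± 0.032; edgeR adjusted p = 5.13e-19). Ccna2, cyclin A2, fell by 0.57 ± 0.035 and Ccnb1, cyclin B1, by 0.39 ± 0.027 (edgeR adjusted p = 1.67e-13 and 1.87e-12). Ccnb2, cyclin B2, was not called, with 137 and 131 CPM in KO-labelled libraries and 125 and 129 CPM in WT-labelled ones (0.07 ± 0.041; edgeR adjusted p = 0.109). Plk1, a kinase of mitotic entry and spindle assembly, fell by 0.51 ± 0.038 (edgeR adjusted p = 8.46e-12).

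Of the Aurora kinases 1 was called. Aurka, which acts at centrosomes and spindle poles, had the largest fall among the mitosis genes, with 102 and 100.1 CPM in KO-labelled libraries and 361 and 364 CPM in WT-labelled ones (-1.84 ± 0.033; edgeR adjusted p = 3.93e-24). Aurkb, the kinase of the chromosomal passenger complex, was not called, with 85.2 and 80.7 CPM in KO-labelled libraries and 87.2 and 89.1 CPM in WT-labelled ones (-0.09 ± 0.049; edgeR adjusted p = 0.112). Aurkb was called higher with scaling by library size alone (0.12; edgeR adjusted p = 0.027) and lower without KO replicate 1 (-0.125; edgeR adjusted p = 0.0438). Birc5, survivin, a partner of Aurora B in that complex, fell to 68.9 and 74.5 CPM in KO-labelled libraries, against 188 and 188 CPM in WT-labelled ones (-1.39 ± 0.043; edgeR adjusted p = 1.9e-19). Thus Birc5 was called and Aurkb was not, and the difference between them was not tested.

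Spindle checkpoint genes were mixed too. Cdc20, the activator of the anaphase-promoting complex, fell by 0.63 ± 0.031 and Bub1b, the checkpoint protein BUBR1, by 0.45 ± 0.031 (edgeR adjusted p = 2.05e-15 and 1.34e-12). Bub1, a checkpoint kinase, was not called, with 206 and 195 CPM in KO-labelled libraries and 188 and 192 CPM in WT-labelled ones (0.08 ± 0.036; edgeR adjusted p = 0.0516). Bub1 and Ccnb2 were called higher with upper-quartile factors (0.16 each) and with library size alone (0.29 for Bub1 and 0.28 for Ccnb2), and without KO replicate 2 (0.115 for Bub1 and 0.103 for Ccnb2). Top2a, the topoisomerase that untangles sister chromatids, fell by 0.29 ± 0.026 (edgeR adjusted p = 2.87e-10). Of the mitosis genes 2 rose, and by little. Mki67, the proliferation marker Ki-67, had 360 and 347 CPM in KO-labelled libraries and 277 and 289 CPM in WT-labelled ones (0.32 ± 0.031; edgeR adjusted p = 1.59e-09). Foxm1, the transcription factor of mitotic genes, had 83.2 and 79.8 CPM in KO-labelled libraries and 70.3 and 71.5 CPM in WT-labelled ones (0.20 ± 0.051; edgeR adjusted p = 0.0011). The factor and the proliferation marker were thus higher in the libraries where 9 of the 15 mitosis genes were lower.

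Kif11, the kinesin Eg5 that pushes spindle poles apart, split by replicate number and not by label. It had 127 and 1287 counts, or 3.71 and 35.9 CPM, in KO-labelled replicates 1 and 2, and 167 and 1323 counts, or 4.76 and 47.8 CPM, in WT-labelled replicates 1 and 2. Replicate 2 was thus 9.69 times replicate 1 in KO-labelled and 10.0 times in WT-labelled libraries, whereas for the other 39 genes this ratio ran from 0.897 to 1.14 in KO-labelled and from 0.887 to 1.07 in WT-labelled libraries. Among 11710 genes with at least 5 CPM in a library, Kif11 was 1 of 2 with a gap of at least 3-fold between replicates in the same direction under both labels. It was not called (-0.37 ± 1.92; edgeR adjusted p = 0.885). With the replicate number as a block it was lower and called (-0.40; edgeR adjusted p = 0.000569), and leaving out KO replicate 1 or WT replicate 2 turned its sign (0.49 and 2.05). Without KO replicate 2 the value was -2.80 and without WT replicate 1 it was -1.27. No p is given for these, because the group left with 1 library has no spread of its own and, without a WT replicate, the fit gave Kif11's own spread no weight.

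The wider machinery around the 40 genes was read from 5 further lists of 111 genes, all tested. Of these 75 fell (67.6%), 20 rose (18.0%) and 16 were not called (median -0.45), beside 35.8% lower and 37.2% higher over all genes tested. The counts of each list below stand against the same shares. Among 40 other replication genes 33 fell and 3 rose (median -0.61). The largest falls there were Rpa1, a subunit of the single-strand binding protein, with 139 and 137 CPM in KO-labelled libraries and 421 and 407 CPM in WT-labelled ones (-1.58 ± 0.032; edgeR adjusted p = 3.71e-23), and Orc1, of the origin recognition complex (-1.43 ± 0.054). The rises were led by Pold1, the catalytic subunit of polymerase delta (0.36 ± 0.038), and Cdc7, the kinase that fires origins (0.30 ± 0.055).

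Among 27 other spindle and kinetochore genes 19 fell and 4 rose (median -0.50), or 2 rose without WT replicate 2. Hmmr, a spindle-associated protein, and Kif20a, a kinesin of cytokinesis, fell most (-0.94 ± 0.034 and -0.88 ± 0.036). Aspm, a spindle pole protein, rose to 219 and 227 CPM in KO-labelled libraries, against 132 and 129 CPM in WT-labelled ones (0.77 ± 0.036; edgeR adjusted p = 6.56e-16), and Cit, citron kinase, rose by 0.46 ± 0.060. Of 22 genes of the anaphase-promoting complex and mitotic entry 15 fell and 3 rose (median -0.43), or 1 rose without KO replicate 1. Ube2c, the ubiquitin-conjugating enzyme of that complex, and Fbxo5, its inhibitor EMI1, fell most (-1.11 ± 0.031 and -1.07 ± 0.044), while Pttg1, securin, and Cdc16, a subunit, rose by 0.29 ± 0.12 and 0.27 ± 0.047.

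The CDK inhibitor and E2F lists held calls in both directions, and no difference between lists was tested. Of 6 other CDK inhibitors 3 rose and 2 fell (median 0.37), or 1 rose without KO replicate 2. Cdkn2b and Cdkn2a, inhibitors of CDK4 and CDK6, rose by 0.94 ± 0.28 and 0.39 ± 0.14, and Cdkn1a, p21, rose by 0.36 ± 0.041. Cdkn1c, p57, and Cdkn2d, p19, fell (-1.10 ± 0.20 and -1.04 ± 0.12). Of 16 other E2F, pocket protein and MuvB genes 7 rose (43.8%) and 6 fell (37.5%), close to the shares over all genes tested (median 0.028). The pocket protein gene Rbl2, a relative of Rb1, and the repressor E2f6 rose by 0.94 ± 0.12 and 0.92 ± 0.070, whereas the activator E2f2 and the MuvB subunit Lin37 fell (-0.90 ± 0.11 and -0.89 ± 0.12).

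Contacts of the 40 genes were read from RNA polymerase II HiChIP, an assay that recovers ligated pairs of distant fragments where the polymerase is bound. The authors deposited 1 loop list per genotype label, with the replicates apparently pooled, so the lists have no replicate check and no test was made. The KO-labelled list held 489409 loops with 977208 tags and the WT-labelled list 143451 loops with 407150 tags. Loops with a false discovery rate of at most 0.01 and at least 2 tags were kept, which left 57463 loops with 285890 tags in the KO-labelled list and 22148 loops with 175142 tags in the WT-labelled list. Each list has anchors of its own, and those of kept loops covered 114.9 Mb in the KO-labelled and 61.6 Mb in the WT-labelled list. Kept loops averaged 4.98 tags in the KO-labelled and 7.91 tags in the WT-labelled list. Values per gene are therefore given as tags per 100000 kept tags, with an exact Clopper-Pearson 95% interval that covers counting error only.

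Most of the 40 genes touched a loop, by an anchor within 2500 bases of the gene in mm10. A kept loop was present at 37 of the 40 (92.5%) in the KO-labelled list, where the share of all RefSeq protein-coding genes was 54.3%, and at 31 (77.5%) in the WT-labelled list, where it was 37.8%. Together the 40 genes had 297 loops with 1550 tags in the KO-labelled list and 182 loops with 1416 tags in the WT-labelled list. By phase, 13 of 13 G1/S genes, 11 of 12 replication genes and 13 of 15 mitosis genes had a loop in the KO-labelled list, against 12, 9 and 10 in the WT-labelled list. G1/S genes held most tags, 958 in the KO-labelled and 1010 in the WT-labelled list. Most of these came from few genes, Ccnd1 (442) and Ccnd3 (223) in the KO-labelled list and Ccnd3 (628) and Cdc25a (232) in the WT-labelled list. Ccna2 and Bub1 had no kept loop in either list, and no loop joined 2 of the 40 genes. Of their loops 35 (11.8%) in the KO-labelled and 32 (17.6%) in the WT-labelled list were shared with the other list, where the shares over all protein-coding genes were 6.14% in the KO-labelled and 15.6% in the WT-labelled list.

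At 20 tags or more in either list, 17 of the 40 genes could be set side by side. By tag share, 7 of them (41.2%) had at least 2-fold more in the KO-labelled list and 6 (35.3%) at least 2-fold less. Among all 5742 genes with as many tags these shares were 54.8% higher and 27.8% lower, so the count for the 17 genes was not above that background in the higher direction. The median ratio of tag shares, KO-labelled over WT-labelled, was 1.225 for the 17 genes and 2.635 for the 5742. A ratio of 1 is therefore not the median among genes that pass this filter. The 20 tags are a smaller share of the KO-labelled list, so the filter admits genes at lower shares there. Genes with 0 tags in the WT-labelled list count as infinitely high. Summed over all protein-coding genes, tags were 470948 in the KO-labelled list, which held 285890 kept tags. They were 273643 in the WT-labelled list, which held 175142. Relative to list size, these sums were nearly equal. Of the 7 genes with a higher tag share, RNA was higher for 3 (Ccnd2, Cdkn1b and Foxm1) and lower for 4 (Ccnd1, E2f3, Mcm2 and Birc5). Ccnd2, Cdkn1b, Foxm1 and Mcm2 lie on chromosome 6 and are the only ones of the 40 genes there. The part of the chromosome in their values was not tested. Of the 6 with a lower tag share, Ccnd3, E2f1, Cdc25a, Cdt1, Mcm7 and Aurka, RNA was lower for all 6, as it was for 13 of the 17. These counts set RNA-seq labels beside HiChIP labels, and whether the labels of both assays mark the same cells was not tested. The counts also rest on kept loops. With every deposited loop counted, tag shares at several of these genes differed in size or direction, as given below.

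**Figure D4:**
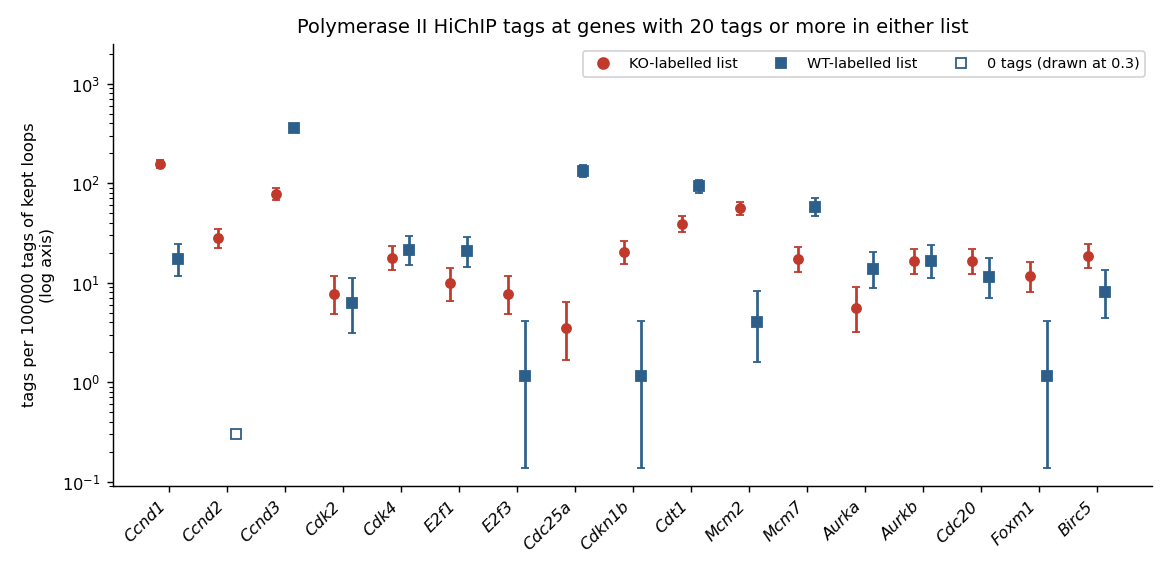
Tags per 100000 kept tags (log axis) at the 17 genes with at least 20 tags in either list, with Clopper-Pearson 95% intervals for counting error only, circles for the KO-labelled and squares for the WT-labelled list. Cdc25a and Ccnd3 lie far higher in the WT-labelled list, Ccnd1, Mcm2 and Cdkn1b in the KO-labelled list, and the open square at 0.3 marks Ccnd2, with 0 tags in the WT-labelled list.

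The D-type cyclin genes changed contacts in different directions. Ccnd1 (mm10, chr7:144929931-144939831) had 39 loops with 442 tags in the KO-labelled list and 3 loops with 30 tags in the WT-labelled list. Its tag share was 155 per 100000 (interval 140.5 to 170) in the KO-labelled and 17.1 (11.6 to 24.5) in the WT-labelled list, a ratio of 9.03 (6.23 to 13.5). The anchors at the gene covered 16638 bases in the KO-labelled list and 6852 bases in the WT-labelled list. In the KO-labelled list the strongest loop, with 58 tags, reached 167 kb to an anchor with no annotated gene (chr7:145090411-145116065), and others reached the Tpcn2 gene. In the WT-labelled list the strongest, with 15 tags, reached 80.8 kb to an anchor at Fgf4, a growth factor gene of pluripotent cells. The KO-labelled anchor also covers LTO1, so its tags cannot be assigned to Ccnd1 alone, whose RNA was lower in KO-labelled libraries.

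Ccnd2 (chr6:127125162-127152188) had 22 loops with 80 tags, or 28.0 per 100000 (22.2 to 34.8), in the KO-labelled list. In the WT-labelled list it had 0, even with every deposited loop counted. Its strongest KO-labelled loop, with 13 tags, ran 116 kb to an anchor with no annotated gene, and another with 7 tags ran 314 kb to Parp11. Ccnd3 (chr17:47505051-47599689) had 34 loops with 223 tags in the KO-labelled list and 64 loops with 628 tags in the WT-labelled list, or 78.0 (68.1 to 88.9) and 359 (331 to 388) per 100000. The strongest loop of each list ran within the gene, with 29 tags over 14 kb in the KO-labelled list and 56 tags over 27.6 kb in the WT-labelled list, and some of its anchors also touch Taf8 or Bysl. For Ccnd2 and Ccnd3 the tag share and the RNA differed in the same direction.

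**Figure D5:**
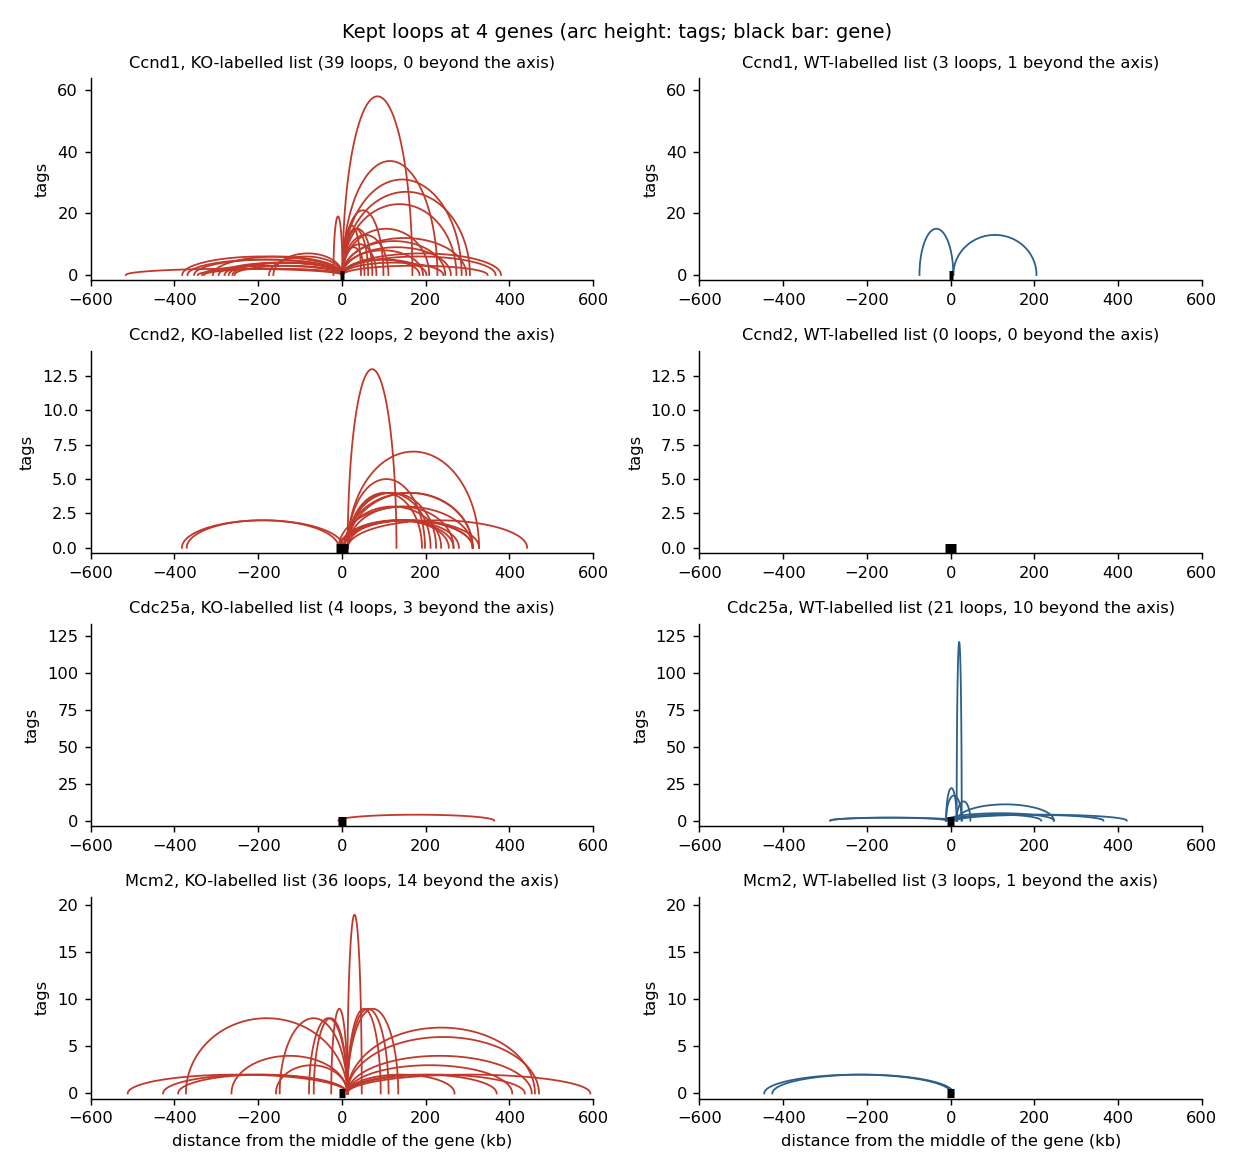
Kept loops at Ccnd1, Ccnd2, Cdc25a and Mcm2, KO-labelled list on the left and WT-labelled list on the right. The x axis is the distance from the middle of the gene (kb), arc height is the number of tags, and each panel title counts the loops and those that end beyond the axis. Ccnd1 has 39 loops in the KO-labelled and 3 in the WT-labelled list, Mcm2 36 and 3, Ccnd2 22 and 0, and Cdc25a 4 and 21.

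Cdc25a (chr9:109875518-109893895) had the lowest ratio of the 17 genes. It had 4 loops with 10 tags in the KO-labelled list and 21 loops with 232 tags in the WT-labelled list, or 3.50 (1.68 to 6.43) and 132 (116 to 151) per 100000, a ratio of 0.0264 (0.0125 to 0.0494). Of its WT-labelled tags 121 came from 1 loop of 12.0 kb, from an anchor that begins at 109893882, at the end of the gene, to an anchor with no annotated gene (chr9:109905845-109916375). The strongest KO-labelled loop had 4 tags and ran 372 kb to Cspg5. The contact that carried most tags at Cdc25a in the WT-labelled list was thus not kept in the KO-labelled one.

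Cdkn1b (chr6:134920401-134925525) had 11 loops with 58 tags, or 20.3 (15.4 to 26.2) per 100000, in the KO-labelled list and 1 loop with 2 tags, or 1.14, in the WT-labelled list. Its strongest KO-labelled loops ran 21.5 kb to Gpr19, with 20 tags, and 8.53 kb within the gene's surroundings, with 18 tags. Foxm1 had 12 loops with 33 tags in the KO-labelled list and 1 loop with 2 tags in the WT-labelled list (ratio 10.1, 2.59 to 87.0), and its strongest KO-labelled loop ran 141 kb to Tead4 with 8 tags. Anchors at Foxm1 also cover Rhno1 or Tex52. Cdkn1b and Foxm1 were also higher in RNA. With every deposited loop counted, Cdkn1b had 137 of 977208 tags in the KO-labelled list and 55 of 407150 in the WT-labelled list. The shares of Cdkn1b were then close to each other. Foxm1 then had 117 tags in the KO-labelled and 32 in the WT-labelled list, a smaller difference in share than among kept loops.

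Among the replication genes, Mcm2 (chr6:88883474-88898780) had 36 loops with 159 tags in the KO-labelled list and 3 loops with 7 tags in the WT-labelled list, or 55.6 (47.3 to 65.0) and 4.00 (1.61 to 8.23) per 100000. All 36 shared 1 anchor of 14378 bases that also covers Tpra1, so tags of the neighbouring genes cannot be told apart. Cdt1 had 24 loops with 111 tags in the KO-labelled list and 9 loops with 162 tags in the WT-labelled list (ratio 0.420, 0.327 to 0.538). Its strongest loop ran to Piezo1 in both lists, over 18.0 kb with 22 tags in the KO-labelled list and over 12.8 kb with 64 tags in the WT-labelled list, and was shared. Mcm7 had 11 loops with 49 tags in the KO-labelled list and 15 loops with 101 tags in the WT-labelled list (ratio 0.297, 0.207 to 0.422), with most tags on loops shorter than 20 kb and anchors that also cover Cops6 or Ap4m1. Mcm2 and Mcm7 thus had opposite tag ratios, while RNA was lower for both. With every deposited loop counted, Mcm2 had 246 tags in the KO-labelled and 48 in the WT-labelled list, a smaller difference in share.

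Of the mitosis genes, Birc5 had 14 loops with 53 tags in the KO-labelled list and 5 loops with 14 tags in the WT-labelled list (ratio 2.32, 1.27 to 4.53). Its strongest KO-labelled loop ran 21.7 kb to an anchor at Tk1, the thymidine kinase gene, and Afmid. With every deposited loop counted, Birc5 had 135 of 977208 tags in the KO-labelled list and 147 of 407150 in the WT-labelled list. Its share was then lower in the KO-labelled list, the reverse of kept loops. Aurka, whose RNA fell most in mitosis, had 6 loops with 16 tags in the KO-labelled list and 8 loops with 24 tags in the WT-labelled list (ratio 0.409, 0.203 to 0.801), at an anchor that also covers Cstf1. Aurkb had 16.4 per 100000 in the KO-labelled and 16.6 in the WT-labelled list (ratio 0.993, 0.612 to 1.64), an interval that includes 1. The same held for Cdc20 (ratio 1.44, 0.837 to 2.57), Cdk2 (1.23, 0.569 to 2.80) and Cdk4 (0.844, 0.542 to 1.33). Of these intervals, only that of Cdk2 also reached 2.635, the median ratio over all genes with 20 tags or more. With every deposited loop counted, KO-labelled and WT-labelled tags were 106 and 84 for Aurkb and 100 and 60 for Cdc20. They were 144 and 102 for Cdk2 and 171 and 137 for Cdk4. As a share of all deposited tags, each of these genes was then lower in the KO-labelled list. E2f1 had a ratio of 0.477 (0.280 to 0.803) and E2f3 of 6.74 (1.66 to 59.1), the second resting on 2 tags in the WT-labelled list. With every deposited loop counted, E2f3 had 50 tags in the KO-labelled and 13 in the WT-labelled list, a smaller difference in share.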

How the data were processed

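The authors deposited 1 table of raw read counts per RNA-seq library, by gene symbol. HISAT2 2.1.0, featureCounts 2.0.3 and DESeq2 1.18.1 are named in the submitters' processing notes, with build mm10. The files' closing rows have the htseq-count form, so the counter is not settled, and the strand setting is not given in the sources used here. Overlapping and antisense genes therefore cannot be told apart. The 5 rows naming no gene, 20.4% to 22.5% of column totals, were left out. For each HiChIP loop the authors deposited a count of paired tags and a q-value (false discovery rate). For HiChIP the submitters' processing notes name HiC-Pro 2.11.1, Bowtie2 2.4.4 and MACS2 2.2.7.1, and the loop caller is not given in the sources used here. The ESC ChIP-seq samples were not analysed here.

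Counts were filtered with filterByExpr and scaled by TMM (factors 1.075 and 1.076 for KO-labelled, 0.931 and 0.928 for WT-labelled libraries). The test was edgeR 4.0.16 under R 4.3.3 (glmQLFit, robust, and glmQLFTest, two-sided), with Benjamini-Hochberg adjustment over 17273 genes. The fit was tested on simulated data. SEs were derived from each F statistic. Samples were grouped by their titles. Replicates are biological, 2 per condition per the series design. Each p-value weighs a difference against their spread, moderated by the spread shared over genes (median prior degrees of freedom 21.66). Whether that spread covers differences between clones is not known, since the number of clones is not given in the sources used here. Replicates differed by more than sampling noise (chi-square per degree of freedom 4.31 in KO-labelled and 3.54 in WT-labelled libraries). DESeq2 1.42.0, other scalings and filters, a replicate block and leaving out each library were alternatives. A loop touched a gene where an anchor overlapped the gene, extended by 2500 bases on both sides (RefSeq, GRCm38.p6), and was shared where both anchors overlapped those of a loop in the other list by at least 1 base. Promoters of 300 bases came from RefSeq.

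The 40 genes and all lists were chosen with earlier results of these data known. Named were all 40 genes, Klf4, the 2 called genes with the largest rise and fall in each further list, and, for loops, genes with at least 20 tags. Of those, the 5 largest and 5 smallest ratios were described in most detail, and other loop genes were added after their values were seen.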

Additional observations from a re-analysis of the deposited data

How the results depend on the processing

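Of 369 log2 fold changes (the 40 genes and Klf4 under 9 alternatives), 356 kept their direction and side of the threshold, 10 gained a call, Kif11 without WT replicate 1 (-1.27) among them, and 3 reversed. The reversals were Aurkb by library size alone (0.12) and Kif11 without KO replicate 1 (0.49) or without WT replicate 2 (2.05), within a range of -2.8 to 2.05 over the libraries left out. Between 31 and 32 of the 40 genes were lower under every alternative, and 5 to 8 higher. Scaling by library size alone called 8 of the 40 higher, 5 of them mitosis genes, and called 7 other replication, 7 other spindle and 6 anaphase-promoting complex genes higher. Upper-quartile factors called 4 mitosis genes higher. Leaving out each library in turn, calls higher ran from 2 to 4 for mitosis genes, from 1 to 3 for other CDK inhibitors, from 2 to 6 for spindle genes and from 1 to 3 for the anaphase-promoting complex list. In these fits the label with 1 library is assumed to vary like the other, and 80.4% to 100% of genes had an infinite prior weight on the shared spread. For those genes, a gene's own spread did not enter its call. Kif11 was among them without a WT replicate, and not without a KO replicate. Replicate numbers did not pair the libraries (correlation of deviations 0.0153), and with a replicate block 32 of the 40 genes were lower and 6 higher, Kif11 (-0.40) and Bub1 (0.08) gaining a call. With every deposited loop, the 40 genes had 1744 loops in the KO-labelled and 1101 in the WT-labelled list, of which 20.5% and 32.2% were shared. At 3 tags or more they had 146 loops in the KO-labelled and 103 in the WT-labelled list, and 20 of the 40 had one in the WT-labelled list. Requiring overlap of at least 0.5 of each anchor left 4.04% of KO-labelled and 6.59% of WT-labelled loops shared. Tag shares of single genes also changed with every deposited loop counted, as given above for Birc5, Cdkn1b and others. The cause of these changes was not tested. With 2 libraries a label and 1 pooled loop list a label, intervals on loop ratios cover counting error only.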
